A study of Homo sapiens with 4 samples.

Results

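The external transcribed spacers are the outer ends of the 45S ribosomal RNA precursor, ahead of 18S (5'ETS) and after 28S (3'ETS). They were taken as nt 8 to 3654 and nt 12995 to 13357 of the reference transcript RNA45SN5. These are 2 of the 10 rRNA regions and 4010 of the 15984 positions for which read depth was listed. The 5'ETS makes up 27.3% of the listed precursor and the 3'ETS 2.72%. The libraries came from HEK293T cells, an embryonic kidney line of human origin with the large T antigen of SV40, which stably overexpressed SIRT7 with a Flag tag and were at passages 10 to 15. The cells were divided into cytosolic and nuclear fractions, Flag-SIRT7 was pulled down from each, and the attached RNA was sequenced. There were 2 cytosolic and 2 nuclear libraries, all with the tagged protein. Neither input RNA nor a mock pulldown was analysed here, so depth is recovered RNA and not enrichment. Nothing in the labels ties the 2 libraries of a fraction to separate cultures, so the spread between libraries may be technical. The limma p-values reflect only that spread, and in the window tests it was taken from the trend over all windows.

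RNA polymerase I makes the precursor in the nucleolus from rDNA repeated on the short arms of the acrocentric chromosomes. The 5'ETS is the platform on which the U3 snoRNA and the small subunit processome assemble, and it is cut away in steps before 18S is finished. The 3'ETS is trimmed early from the end of 28S. Both spacers are degraded by nuclear exonucleases and are absent from the mature ribosome. SIRT7, an NAD-dependent deacylase of the sirtuin family, is concentrated in the nucleolus, where it associates with RNA polymerase I and the rDNA. The comparison of the fractions asked which precursor sequences came down with SIRT7 in each compartment.

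The ends of the spacers show where precursor gives way to mature rRNA. The sequences printed run 5′ to 3′ on the transcript strand and were taken from the reference bases in the deposited table. Capitals mark the mature rRNA, with 18S in the first and 28S in the second, and lower case marks the spacer.
nt 3625 to 3684: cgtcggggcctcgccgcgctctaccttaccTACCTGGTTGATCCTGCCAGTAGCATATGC
nt 12965 to 13024: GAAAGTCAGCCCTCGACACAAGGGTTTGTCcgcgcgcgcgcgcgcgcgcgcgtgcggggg
The 3'ETS opens with 11 repeats of CG. The 5'ETS has 79.3% G+C and the 3'ETS 84.0%, against 56.1% in 18S and 69.4% in 28S.

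Depth was very low in both spacers beside the mature rRNAs. Mean depth over the 5'ETS was 12.5 and 12.9 reads per base in the cytosol against 16.6 and 12.8 in the nucleus. Mean depth over the 3'ETS was 11.6 and 10.8 in the cytosol against 5.28 and 3.31 in the nucleus. The spacers were thus about equally deep in the cytosol, while in the nucleus the 3'ETS lay far below the 5'ETS. The same libraries had a mean of 189023 to 211717 reads per position over all listed positions. The number of reads behind these depths was small. Of runs at depth 1 that were at least 70 nt long, 6 stood between empty positions, and the longest was 86 nt. Shorter runs were not counted, and reads shorter than 86 nt would make the numbers that follow too low. Summed depth divided by 86 gave about 532 and 546 reads in the cytosol against 705 and 543 in the nucleus for the 5'ETS. For the 3'ETS it gave 49 and 46 reads in the cytosol against 22 and 14 in the nucleus. The exact Poisson 95% intervals for the 3'ETS were 36 to 65, 33 to 61, 14 to 34 and 8 to 23 reads in the same order. They cover counting error only, and depth does not tell copies of 1 molecule from separate molecules.

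To compare libraries, depth was divided by the mean depth of the library over all listed positions and is given in parts per 1000000 (ppm) of that mean. The values are therefore relative to all rRNA reads of a library. The 3'ETS fell from 55.3 ± 0.584 ppm in the cytosol to 21.2 ± 5.27 in the nucleus (SD, n = 2). Both nuclear libraries lay below both cytosolic ones. Less spacer RNA in a fraction and less recovery with SIRT7 cannot be told apart here. The fall was 2.65-fold (95% interval 1.76 to 3.98), a log2 difference of -1.40 (SE 0.22) with an adjusted p of 0.00626 in limma over the 10 regions. Of these regions 50% passed the threshold of 0.05. Without cytosolic replicate 1 the difference was -1.39 with an adjusted p of 0.05, at the threshold.

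The 5'ETS had 62.8 ± 3.36 ppm in the cytosol against 73.1 ± 7.65 in the nucleus (SD, n = 2) and did not pass the test. The ratio was 1.16 (95% interval 0.877 to 1.54), with a log2 change of 0.22 (limma, SE 0.15, adjusted p = 0.216). Its sign was not stable. With medians over positions the 5'ETS passed as a fall, with a log2 change of -0.53 and an adjusted p of 0.0319 in limma, and with scaling by the median of ratios it stood at -0.078. Median depth was 10 and 9 reads in the cytosol against 7 and 6 in the nucleus, so the typical position was shallower in the nucleus while the mean was not. The internal spacers of the same precursor differed more between the fractions than the 5'ETS did. Mean depth was 10.6 and 13.0 reads in the cytosol against 24.7 and 25.2 in the nucleus for ITS1. For ITS2 it was 100 and 118 in the cytosol against 320 and 364 in the nucleus.

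**Figure D1:**
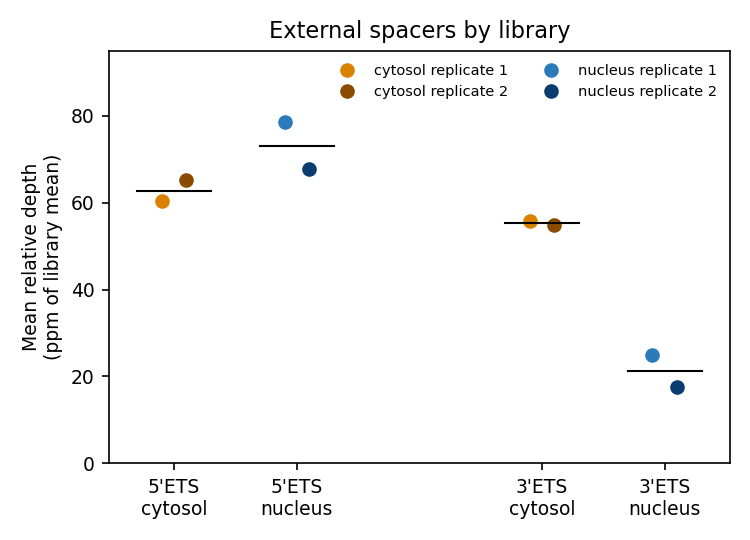
Mean depth of each external spacer in ppm of the library's mean depth over all listed positions. Each point is 1 library and each line the mean of the 2 libraries of a fraction. The nuclear points of the 3'ETS lie below both cytosolic points (means 21.2 against 55.3), while those of the 5'ETS lie slightly above (73.1 against 62.8), an order that turned with medians over positions and with scaling by the median of ratios.

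A ratio within a library needs no scaling between libraries. The depth of the 3'ETS over that of the 5'ETS was 0.921 and 0.842 in the cytosol against 0.318 and 0.258 in the nucleus, 3.07-fold lower in the nucleus. The log2 ratio was -0.18 ± 0.092 in the cytosol against -1.80 ± 0.21 in the nucleus (SD, n = 2). That difference, -1.62, exceeded the SD of each fraction. A two-sided exact permutation test gave p = 0.333, and with 2 libraries against 2 it cannot give less. Set against the rRNA beside it, the 5'ETS had 28 and 27.7 ppm of the depth of 18S in the cytosol. In the nucleus the values were 27.3 and 22.9, a log2 difference of -0.16 that was smaller than the nuclear SD of 0.18 (exact permutation p = 0.333). Leaving out nuclear replicate 1 or 2 brought it to -0.281 or -0.031, and with medians over positions it was -0.915. The 3'ETS had 23.9 and 24.3 ppm of the depth of 28S in the cytosol against 12.4 and 8.75 in the nucleus. That was 2.32-fold lower (log2 difference -1.21, exact permutation p = 0.333), with no overlap between the fractions.

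At the junctions the spacers were almost level between the fractions. The last base of the 5'ETS had 15 and 10 reads in the cytosol against 21 and 10 in the nucleus. Depth at the first base of 18S was 21 and 15 in the cytosol against 26 and 22 in the nucleus. The steep rise came inside 18S, with 2990 and 3495 reads in the cytosol against 5683 and 3793 in the nucleus at base 12. At the other end depth fell steeply inside 28S. Base 7 counted from its end had 27116 and 24261 reads in the cytosol against 25734 and 23924 in the nucleus. The last base of 28S had only 123 and 97 reads in the cytosol against 75 and 107 in the nucleus. One base later, at the start of the 3'ETS, depth was 14 and 17 in the cytosol against 11 and 14 in the nucleus. In each library 11.4% to 17.5% of the depth at the last base of 28S was thus present at the first base of the spacer, with overlapping fractions.

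The fall of the 3'ETS lay away from 28S. Its first 100 nt, nt 12995 to 13094, had 8.95 and 11.8 reads in the cytosol against 10.4 and 7.68 in the nucleus. These values overlapped, with a log2 change of -0.15 (limma, SE 0.28, adjusted p = 0.686). The next window, nt 13095 to 13194, was the thinnest, at 3.10 and 2.84 reads in the cytosol against 0.46 and 0.38 in the nucleus, and was too shallow to be tested. At nt 13195 to 13294 depth was 16.5 in both cytosolic libraries against 4.59 and 2.65 in the nucleus. Depth at nt 13295 to 13357, the last piece of the precursor, was 21.4 and 13.2 in the cytosol against 5.94 and 2.05 in the nucleus. In these last 3 windows every nuclear value was below every cytosolic value. Over all tested windows of all regions, 30.7% had both nuclear relative depths below both cytosolic ones.

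The relative depth of nt 13195 to 13294 fell 4.55-fold and that of nt 13295 to 13357 fell 4.36-fold. On the log2 scale these differences came to -1.73 (SE 0.28, adjusted p = 9.84e-09) and -1.72 (SE 0.28, adjusted p = 1.04e-08) in limma over 137 windows. Of all 137 windows, 61.3% passed, 21.2% as lower in the nucleus. Both windows reached the minimum depth of 10 only in the cytosol, so they could enter the test only through the fraction in which they were deep. Without nuclear replicate 2 the last window had -1.29 and an adjusted p of 0.0665. The stretch from nt 13195 to the end rests on about 35 and 29 reads in the cytosol against 10 and 5 in the nucleus. When the 100 nt next to 28S were left out, the region difference of the 3'ETS was -2.27 in place of -1.40 (adjusted p = 0.00709 in limma).

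The end of the 3'ETS carries that difference. Capitals mark the longest run of bases in the 3'ETS, nt 13143 to 13323, at which both cytosolic relative depths were over 2 times both nuclear ones. Mean depth over the run, which was picked for this contrast, was 15.1 and 13.1 reads in the cytosol against 3.91 and 2.13 in the nucleus. The run was thinnest at its outset.
nt 13143 to 13357: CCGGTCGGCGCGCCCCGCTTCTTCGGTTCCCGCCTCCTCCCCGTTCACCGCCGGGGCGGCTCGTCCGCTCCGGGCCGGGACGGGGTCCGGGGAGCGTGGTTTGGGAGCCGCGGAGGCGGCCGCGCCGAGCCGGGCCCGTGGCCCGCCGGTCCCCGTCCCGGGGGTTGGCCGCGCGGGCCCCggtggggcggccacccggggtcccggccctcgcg

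**Figure D2:**
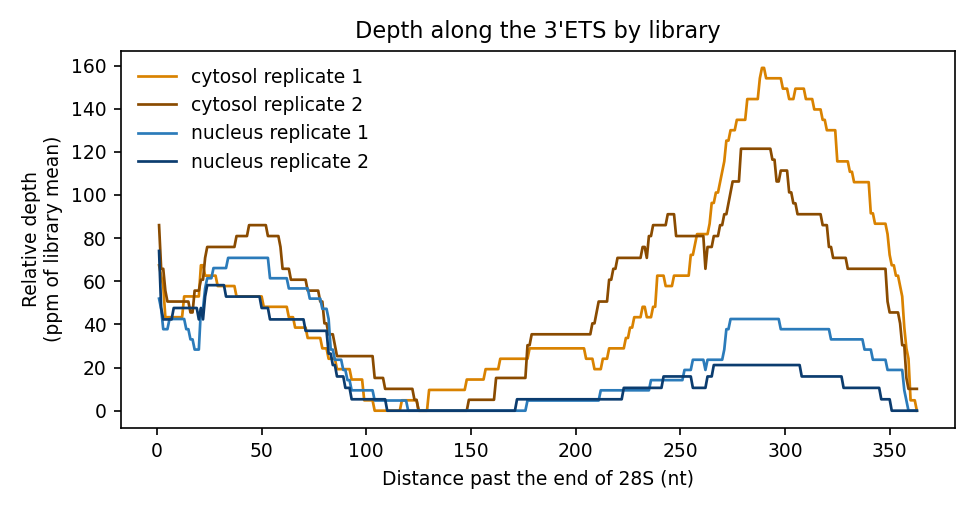
Relative depth along the 3'ETS against the distance past the end of 28S, in ppm of each library's mean, with 1 line per library. All 4 lines run close over the first 100 nt, and at 162 of the last 163 positions both cytosolic lines lie above both nuclear ones. Neighbouring positions share reads, and no such share of positions is given for the other regions.

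Along the 5'ETS the reads were unevenly spread. In segments of 500 nt, mean depth was 1.76 to 2.52 reads in nt 8 to 500 over the 4 libraries, and 20.9 to 33.7 in nt 501 to 1000. It was 21.4 to 27.1 in nt 1001 to 1500, 13.9 to 18.7 in nt 1501 to 2000 and 14.6 to 21.4 in nt 2001 to 2500. Beyond these, mean depth was 6.32 to 17.4 in nt 2501 to 3000, 0.130 to 0.732 in nt 3001 to 3500 and 2.12 to 6.29 in nt 3501 to 3654. Most reads thus came from nt 501 to 3000, and nt 3001 to 3500 was the emptiest segment. The first window, nt 8 to 107, had at most 0.76 reads per position, and the last, nt 3508 to 3654, had 4.01 and 3.74 in the cytosol against 6.40 and 2.22 in the nucleus.

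No read covered 248 of the 3647 positions of the 5'ETS in any library, against 5 of 363 in the 3'ETS. The longest empty stretch, nt 3292 to 3446, was 155 nt long with 85.8% G+C and is printed here, with its run of 8 CG repeats in capitals.
nt 3292 to 3446: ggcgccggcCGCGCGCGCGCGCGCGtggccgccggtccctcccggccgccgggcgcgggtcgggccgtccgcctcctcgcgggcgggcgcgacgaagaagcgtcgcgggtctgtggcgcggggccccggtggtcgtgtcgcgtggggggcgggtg
Across the 36 windows of the 5'ETS, depth was lower where G+C was higher, with Spearman's rho of -0.619 to -0.695 in the 4 libraries. The 8 CG repeats of the empty stretch were at 0 in all 4 libraries, and the 11 that open the 3'ETS, directly beside 28S, had 8.41 to 10.9 reads. These windows share their library and adjoin each other, so the correlation is a description.

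The order of the 5'ETS windows by depth was alike in all libraries. Spearman's rho over 36 windows was 0.932 between the cytosolic libraries, 0.951 between the nuclear ones and 0.81 to 0.897 across the fractions, again a description over windows that share their libraries. The nuclear reads were gathered in fewer places. The 5 deepest windows of each library held 30.4% and 32.6% of its 5'ETS depth in the cytosol against 40.9% and 42.9% in the nucleus. Depth reached 40 reads at 67 and 122 positions in the cytosol and at 624 and 418 in the nucleus. Positions at 0 were nevertheless fewer in the nucleus, 469 and 574 against 634 and 742. The fractions did not overlap in any of these 3 measures.

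**Figure D3:**
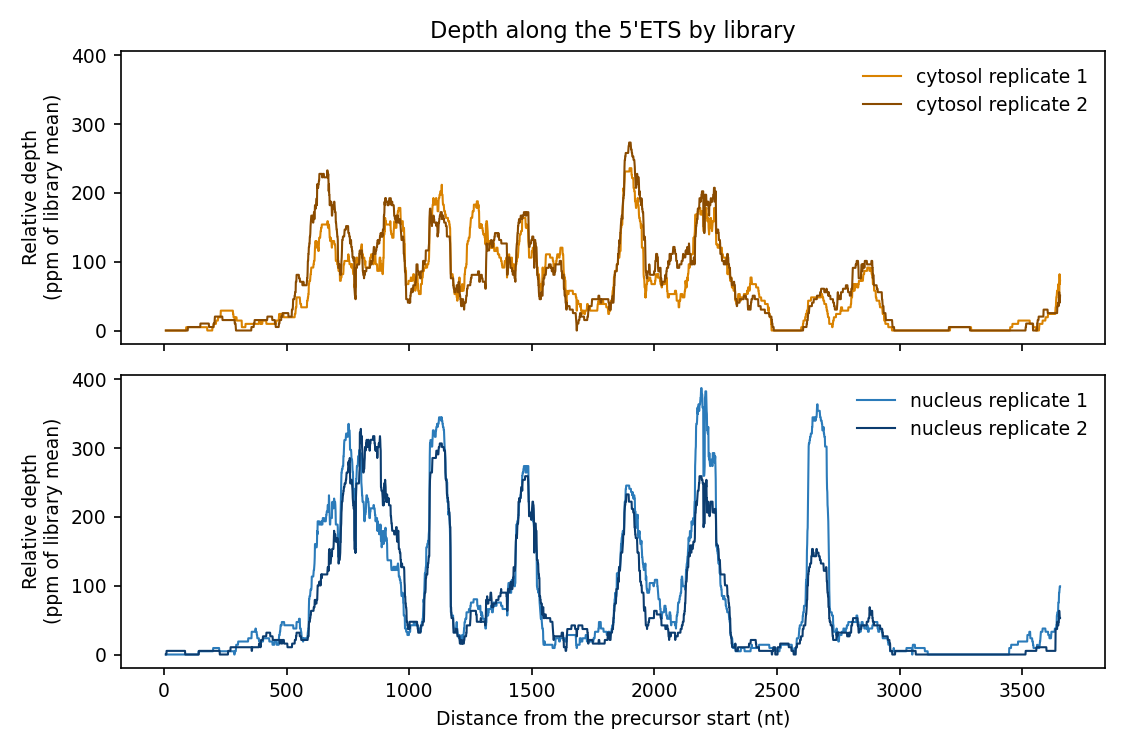
Relative depth along the 5'ETS in ppm of each library's mean, with the cytosolic libraries above and the nuclear ones below on the same scale. The nuclear lines form taller and more separate peaks, with 624 and 418 positions at 40 reads or more against 67 and 122 in the cytosol.

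Of the 36 windows of 100 nt, 18 were deep enough to be tested. Of these, 3 rose in the nucleus, 2 fell and 13 did not pass, against 61.3% of all tested windows that passed, 40.1% as rises and 21.2% as falls. The share called in the 5'ETS was therefore below that of the whole table. The table also holds windows of 18S and 28S, with mean depths of 378000 to 610000 reads. The shares were not matched for depth. The median log2 difference was 0.028 over its 18 tested windows and 0.16 over all 137. The fractions did not overlap in 8 tested windows with the nucleus higher and in 4 with the cytosol higher, while over all tested windows 47.4% and 30.7% were so. The fit took the spread of each window from the trend over all windows and gave no weight to the window's own 2 libraries per fraction. Its p-values therefore do not show how well the libraries of a single window matched.

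The first rise covered 2 adjacent windows. At nt 708 to 807 depth was 19.6 and 22.5 reads in the cytosol against 55.8 and 44.1 in the nucleus, and at nt 808 to 907 it was 21.6 and 23.2 in the cytosol against 42.1 and 54.1 in the nucleus. Each nuclear value was above each cytosolic one. Relative depth was 2.38-fold and 2.19-fold higher, with log2 differences of 1.18 (SE 0.31, adjusted p = 0.000351) and 1.04 (SE 0.31, adjusted p = 0.00157) in limma. They had the highest mean relative depth of all 5'ETS windows, 176 and 177 ppm. Without nuclear replicate 2 the second window had 0.79 and an adjusted p of 0.0716. In the sequence, capitals mark the longest run, nt 764 to 805, where both nuclear relative depths were over 2 times both cytosolic ones.
nt 708 to 907: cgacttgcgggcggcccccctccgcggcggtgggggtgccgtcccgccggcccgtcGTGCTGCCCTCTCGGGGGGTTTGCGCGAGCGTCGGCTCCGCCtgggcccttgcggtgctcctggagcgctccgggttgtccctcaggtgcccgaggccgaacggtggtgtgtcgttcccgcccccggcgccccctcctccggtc

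The other rise, at nt 2608 to 2707, was the largest. Depth was 8.39 and 8.02 reads in the cytosol against 60.0 and 22.7 in the nucleus, with the cytosolic libraries close and the nuclear ones far apart, though both above the cytosol. The relative depth was 4.98-fold higher and the log2 difference, with the pseudocount, 1.95 (limma, SE 0.30, adjusted p = 8.26e-10). Without nuclear replicate 1 it was 1.36 and without nuclear replicate 2 it was 2.54, and it passed in both cases. The window reached a depth of 10 only in the nucleus. Just ahead of it, nt 2508 to 2607 had 0.11 and 0.01 reads per position in the cytosol, with 4.0 and 2.64 in the nucleus. Its highest depth in the cytosol was 2 and 1 reads. That window was below the minimum depth and was chosen after its values were seen. Capitals mark the longest run, nt 2577 to 2702, where both nuclear relative depths were over 2 times both cytosolic ones.
nt 2508 to 2707: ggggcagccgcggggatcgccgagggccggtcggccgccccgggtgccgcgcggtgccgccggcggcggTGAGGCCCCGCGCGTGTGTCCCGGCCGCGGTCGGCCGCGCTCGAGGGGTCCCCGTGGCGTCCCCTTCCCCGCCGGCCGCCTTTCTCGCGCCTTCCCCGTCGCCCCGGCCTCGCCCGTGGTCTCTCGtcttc

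The falls in the 5'ETS were smaller and less firm. At nt 1208 to 1307 depth was 28 and 13.1 reads in the cytosol against 12.5 and 8.25 in the nucleus, with a log2 change of -0.79 (limma, SE 0.29, adjusted p = 0.0135). Most of that difference came from cytosolic replicate 1, without which it was -0.32 with an adjusted p of 0.532. At nt 2808 to 2907 the depth was 15.2 and 17.6 in the cytosol against 9.12 and 8.96 in the nucleus, with a log2 change of -0.72 (limma, SE 0.29, adjusted p = 0.0229). The libraries of each fraction were close, but this window reached a depth of 10 only in the cytosol. Scaling to 28S ended both calls, and so did leaving out either nuclear library. The second call also ended without either cytosolic library, though its difference stayed between -0.595 and -0.842 whichever library was left out.

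A further window lay lower in the nucleus but missed the minimum depth and was not tested. At nt 2308 to 2407 depth was 11.9 and 9.75 reads in the cytosol against 1.99 and 2.64 in the nucleus, 4.57-fold lower in relative depth, with no overlap. It was chosen after its values were seen. Capitals mark the longest run, nt 2310 to 2387, where both cytosolic relative depths were over 2 times both nuclear ones.
nt 2308 to 2407: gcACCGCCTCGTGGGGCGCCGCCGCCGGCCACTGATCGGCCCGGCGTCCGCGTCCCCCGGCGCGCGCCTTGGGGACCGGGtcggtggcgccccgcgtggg

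The remaining deep windows did not pass. Depth at nt 608 to 707 was 27.6 and 39.1 reads in the cytosol against 40.3 and 22.8 in the nucleus, which overlap. At nt 1408 to 1507, the window with the lowest G+C of the 5'ETS (64%), depth was 25.3 and 26.5 in the cytosol against 41.5 and 36.7 in the nucleus. Its log2 difference of 0.57 (SE 0.31) had an adjusted p of 0.0976 in limma and passed at 0.0356 when libraries were scaled to 28S. At nt 2108 to 2207 the depth was 24.8 and 26.6 in the cytosol against 48.3 and 30.8 in the nucleus, with 0.57 (limma, SE 0.31, adjusted p = 0.0993) and 0.0364 when scaled to 28S. In the last 2 windows both nuclear values lay above both cytosolic ones.

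**Figure D4:**
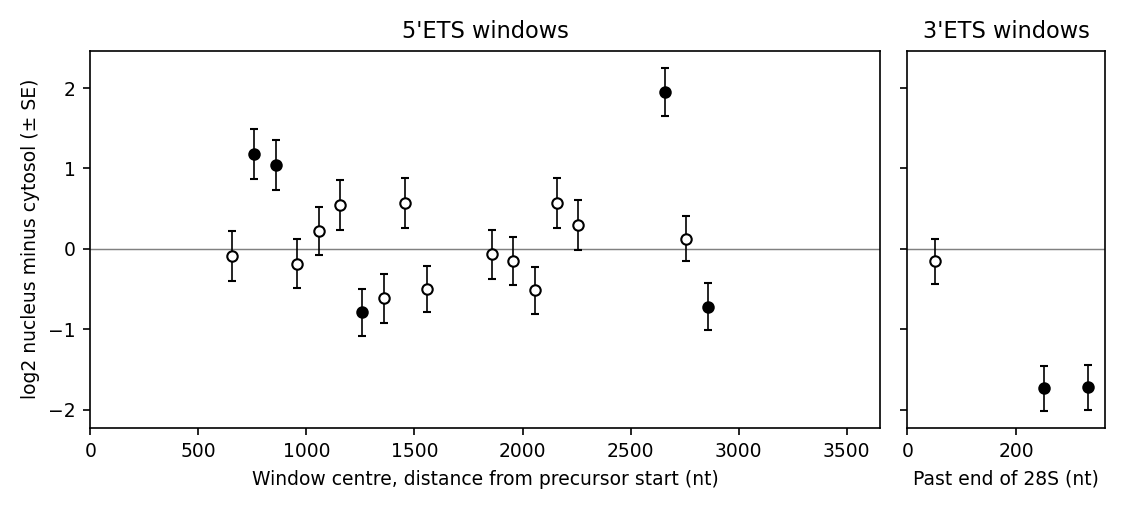
Log2 difference in relative depth, nucleus minus cytosol, for the 18 tested windows of the 5'ETS and the 3 of the 3'ETS, with the standard error of the limma fit. Filled points passed the threshold, 3 above 0 and 2 below in the 5'ETS and 2 below in the 3'ETS. Those at nt 2608 to 2707 and nt 2808 to 2907, and both in the 3'ETS, reached the minimum depth only in the fraction in which they were deep. In the 5'ETS the largest rise stands at 1.95, and both filled points below 0 in the 5'ETS lost their call when libraries were scaled to 28S.

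Some reads began at nearly the same bases, in both fractions or mainly in 1 library, and they made up a minority of the depth of the peaks they lay in. They were looked for as a rise of depth over 2 bases with a fall 86 nt farther on. Reads of that length that share a start also share an end, so the fall is no separate sign of shared ends. Over nt 1083 and 1084 depth rose by 9 and 6 reads in the cytosol against by 20 and 18 in the nucleus. Depth fell again over nt 1169 and 1170, 86 nt farther on, by 10 and 7 reads in the cytosol against by 20 and 22 in the nucleus. Within that span the median depth was 37 and 31 in the cytosol against 67 and 54 in the nucleus. A like block at nt 2166 and 2167 rose by 5 and 7 reads in the cytosol against 13 and 7 in the nucleus. At nt 2626 and 2627, inside the window with the largest rise, depth rose by 16 in nuclear replicate 1, where median depth was 70, and by 2 to 3 in the other libraries. Over nt 798 and 799 it rose by 11 in nuclear replicate 2, where median depth was 58, and by 0 to 3 in the other libraries. That block lay mostly in nt 808 to 907, whose log2 difference was 1.04, and 0.79 without nuclear replicate 2. At nt 1434 and 1435 the rise was 2 and 5 reads in the cytosol against 11 and 6 in the nucleus. At nt 1313 and 1314 the rise was 5 and 8 reads in the cytosol against 2 and 6 in the nucleus. Copies of 1 molecule and separate molecules whose reads share a start cannot be told apart here. The blocks were looked for after the profiles had been seen.

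In 2 places of the 5'ETS depth dropped for exactly 6 bases and came back, in all 4 libraries. At nt 777 to 782 mean depth was 13.5 and 10.2 reads in the cytosol against 34.5 and 28.7 in the nucleus. The base before had 17 and 21 reads in the cytosol against 51 and 42 in the nucleus, and the base after had 21 and 18 in the cytosol against 50 and 43 in the nucleus. The missing share was 28.9% and 47.9% in the cytosol against 31.7% and 32.5% in the nucleus. At nt 2200 to 2205 it was 15.0% and 26.6% in the cytosol against 28.2% and 24.1% in the nucleus, so the fractions overlapped at both dips. The table gives depth only, and how single reads align across these bases was not tested. Capitals mark the 6 bases of each dip.
nt 752 to 807: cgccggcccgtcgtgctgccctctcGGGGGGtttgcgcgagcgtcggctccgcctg
nt 2175 to 2230: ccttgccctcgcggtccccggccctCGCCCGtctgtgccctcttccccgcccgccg

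**Figure D5:**
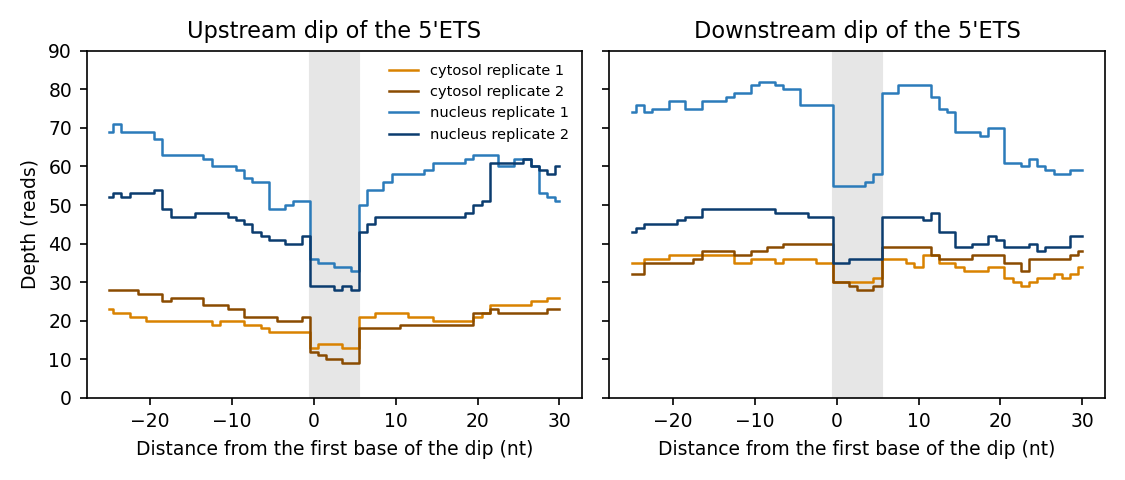
Depth in reads around the 2 dips that the search found in the 5'ETS, against the distance from the first base of each dip, with 1 line per library and the 6 bases shaded. Depth drops at the first shaded base and recovers after the last in all 4 libraries.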

How the data were processed

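RNA pulled down with Flag-SIRT7 was sequenced in 4 libraries, 2 per fraction. Per the file headers, the deposited values are coverage, the whole number of reads over each base of the rRNA reference sequences, not scaled between libraries. Tools named in the submitters' processing notes are SAMtools, Bowtie2 2.2.6 and cutadapt 1.5. Not given in the sources used here are their settings, read filters, the handling of reads with several matches, and whether strand was used. A read counts at every base it covers, and reads of different rDNA copies are not separated.

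Windows of 100 nt started at each region's first base and did not cross region ends. Of 162 windows, 137 reached a mean depth of 10 in 2 or more libraries. The nucleus was compared with the cytosol by limma 3.58.1 in R 4.3.3 (two-sided, variance trend) on log2(relative depth + 0.00001). P-values were adjusted by Benjamini-Hochberg over all windows, with a threshold of 0.05. The pseudocount stands for 1.89 to 2.12 reads and understates changes of thin windows. A pseudocount of 0.01, 1890 to 2117 reads, lies above all depth in the external spacers and was an alternative. The 10 regions were tested without a trend or pseudocount. Ratios within a library had two-sided exact permutation tests in scipy 1.17.1. Windows named are all of the 3'ETS and, of the 5'ETS, the first, the last, the 5 of highest mean relative depth and all past the threshold; others are identified as chosen after their values were seen. The regions, windows and settings were chosen with earlier results of these data known.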

Additional observations from a re-analysis of the deposited data

How the results depend on the processing

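Of the alternatives run, the 3'ETS kept its fall in all 11, at -1.15 to -2.27 on the log2 scale, and the 3 ratios within a library kept their sign in all 7 each. The 5'ETS region turned to -0.53 with medians over positions and to -0.078 with the median of ratios. Windows of the 5'ETS that rose numbered 3, and 5 with a pseudocount of 0.0001, without a depth filter or without a variance trend, 6 with scaling to 28S, 9 with windows of 50 nt, and 1 with windows of 200 nt or a pseudocount of 0.01. Windows that fell numbered 2, and 11 with windows of 50 nt, 7 without a depth filter, 5 with the median of ratios, 4 with a minimum depth of 5, 1 with windows of 200 nt, 0 with scaling to 28S or a pseudocount of 0.01, and 0 to 1 when a library was left out. In the 3'ETS the falls numbered 2, with 1 in windows of 200 nt, 0 with a pseudocount of 0.01 and 1 to 2 when a library was left out. Where these limma counts are 0, the falls at an unadjusted p under 0.05 numbered 0 (5'ETS) and 1 (3'ETS) with the pseudocount of 0.01, 1 with scaling to 28S and 0 to 3 when a library was left out. No window of the 3'ETS rose in any of the 15 alternatives in limma (0 also at an unadjusted p under 0.05). Of the windows that did not pass, nt 608 to 707 turned from -0.089 to 0.0901 with scaling to 28S and ranged from -0.397 to 0.22 when a library was left out. The window nt 12995 to 13094 turned from -0.15 to 0.0049 with scaling to 28S and ranged from -0.345 to 0.042 when a library was left out. The median of ratios moved the median window by -0.23 and scaling to 28S by 0.19. The number of windows tested changed with the window length and the depth filter. Shares called over all regions are given only for the main setting, where 61.3% of 137 windows passed. The counts under the alternatives therefore show how far the calls moved, not how the spacers stood against the other regions.

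The replicate number did not pair the libraries in any stated way, and the deviations of same-numbered libraries had a correlation of 0.015 over 137 windows, with 2 pairs. With the replicate block the falls in the 5'ETS numbered 0 (2 at an unadjusted limma p under 0.05), its rises 3 and the falls in the 3'ETS 2, and neither region changed its call (0.22 and -1.40). Depth limits all window values, since a mean depth of 10 over 100 nt is about 12 reads.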
